A study of Rattus norvegicus with 16 samples.

Results

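The messenger RNAs of 7 genes of neurotrophin signalling and neuronal plasticity were followed through rat frontal cortex: the ligand gene Bdnf, the receptor genes Ntrk2, Ntrk3 and Ngfr, the transcription factor gene Creb1, the growth cone gene Gap43 and the activin subunit gene Inhba. They were taken by symbol from the 17001 gene symbols of the deposited table, and where a symbol had several loci, as Creb1 did, the one with the highest mean over the 16 libraries was used. All 7 had a locus, and 6 of the 7 were tested because Ngfr had a mean of 0.628 FPKM, under the minimum of 1 FPKM. The unit, FPKM, divides the fragments of a gene by its transcript length and by the size of the library, so levels of different genes can be set side by side per length.

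The RNA came from male Sprague-Dawley rats that entered the study at 11 weeks of age and ate their diet for 7 weeks, and poly-A RNA was sequenced in 16 libraries, 4 per group. Animals of the chow group ate chow and those of the HF group ate high fat food, and neither group was injected. The HF_PBS group received the high fat diet and intraperitoneal PBS, the vehicle, for 10 days. The HF_5AzaD group received the high fat diet and 10 days of intraperitoneal 5-AzaD, taken here to be the DNA methyltransferase inhibitor 5-aza-deoxycytidine, in the same vehicle. Numbers after a group name are the library numbers of the titles. The series text uses HFD for the diet without injection, whereas the titles give HFD to the PBS animals; groups here follow the treatment stated for each sample, and were HF and HF_PBS exchanged, the calls given below for HF_PBS against chow, those of Gap43 and Ntrk3 included, would belong to the diet comparison, and HF_5AzaD against HF, in which Inhba was called, would become the comparison of inhibitor with vehicle. Nothing in the labels ties the 4 libraries of a group to different rats; the p-values therefore rest on a spread between libraries that could be technical. No chow group received injections, and the labels name no batch, so injection and any shared handling of the injected groups cannot be told apart.

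Neurotrophins are secreted growth factors made as precursors, cut by proprotein convertases and sensed by Trk receptor tyrosine kinases and by the pan-neurotrophin receptor that Ngfr encodes. BDNF acts through TrkB, the product of Ntrk2, and drives the MAP kinase, PI3 kinase and phospholipase C pathways, which reach the transcription factor CREB. CREB in turn drives activity-induced genes, Bdnf among them, and in cortex this loop is known for its part in synaptic plasticity and dendritic growth. Gap43 and Inhba, an activity-induced gene, are read as markers of axonal growth and of activity-dependent transcription.

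The absolute depth of the libraries is unknown. Relative to chow 2, the spacing of the lowest FPKM values gave depths of 38.2% to 100% in chow, 30.4% to 36.2% in HF, 32.7% to 42.7% in HF_PBS and 34.9% to 44.8% in HF_5AzaD. Cortical markers were present in every library, with Slc17a7, the vesicular glutamate transporter of cortical projection neurons, between 132 and 823 FPKM. The summed level of 8 of 8 projection neuron markers was 785 to 913 FPKM in chow, 561 to 1038 in HF, 184 to 797 in HF_PBS and 531 to 787 in HF_5AzaD. HF_PBS 3 held the lowest sum. Striatal markers, 15 of 16 with a locus and Isl1 at 0 in some library, summed to 300.4 to 476 FPKM in chow, 274 to 1592 in HF, 285 to 1120 in HF_PBS and 292 to 423 in HF_5AzaD, with HF 8 the highest. Within HF_PBS the striatal sums were 285, 854, 911 and 1120 FPKM in libraries 1, 2, 3 and 4, so all but HF_PBS 1 lay above every chow library. Markers of leptomeninges and mural cells, 14 of 14 with a locus and Col1a2 at 0 in every library, summed to 304 to 1469 FPKM in chow, 290 to 663 in HF, 558 to 3196 in HF_PBS and 922 to 4117 in HF_5AzaD. Oligodendrocyte and myelin markers, 13 of 14 with a locus and none at 0, summed to 3663 to 5626 FPKM in chow, 3276 to 5229 in HF, 3460 to 13780 in HF_PBS and 2368 to 7249 in HF_5AzaD, with HF_PBS 3 and 4 the highest. Astrocyte markers, 9 of 10 with a locus, summed to 2541 to 3202 FPKM in chow, 2284 to 3847 in HF, 2900 to 4119 in HF_PBS and 3126 to 3323 in HF_5AzaD. Among them Gfap, the intermediate filament gene of astrocytes, was at 81.2 to 96.7 FPKM in chow, 102 to 163 in HF, 122 to 253 in HF_PBS and 71.2 to 174 in HF_5AzaD. Deep cortical layer markers, 12 of 12 with a locus, summed to 189 to 362 FPKM in chow and 269 to 557 in HF. They summed to 234 to 490 in HF_PBS and 223 to 460 in HF_5AzaD. Markers of claustrum and piriform cortex, 5 of 5 with a locus, summed to 61.5 to 75.9 FPKM in chow and 81.1 to 101 in HF. Their sums were 79.8 to 114 in HF_PBS and 59.7 to 153 in HF_5AzaD. The part of these tissue differences in the results was not tested, and in bulk tissue fewer cells of a type and less RNA per cell cannot be told apart.

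The 7 genes spanned more than 2 orders of magnitude. Gap43 was the highest, with a mean of 327 FPKM over the 16 libraries, followed by Ntrk2 at 94.9, Ntrk3 at 23.8 and Bdnf at 6.19. The ranges of these 4 over the 16 libraries did not overlap one another. Inhba at 1.75 FPKM, Creb1 at 1.49 and Ngfr at 0.628 followed, and from Bdnf downward the ranges of neighbours overlapped. Ngfr varied most, by 25.8 times between its lowest and highest library, whereas Creb1 varied by 1.74 times.

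**Figure D1:**
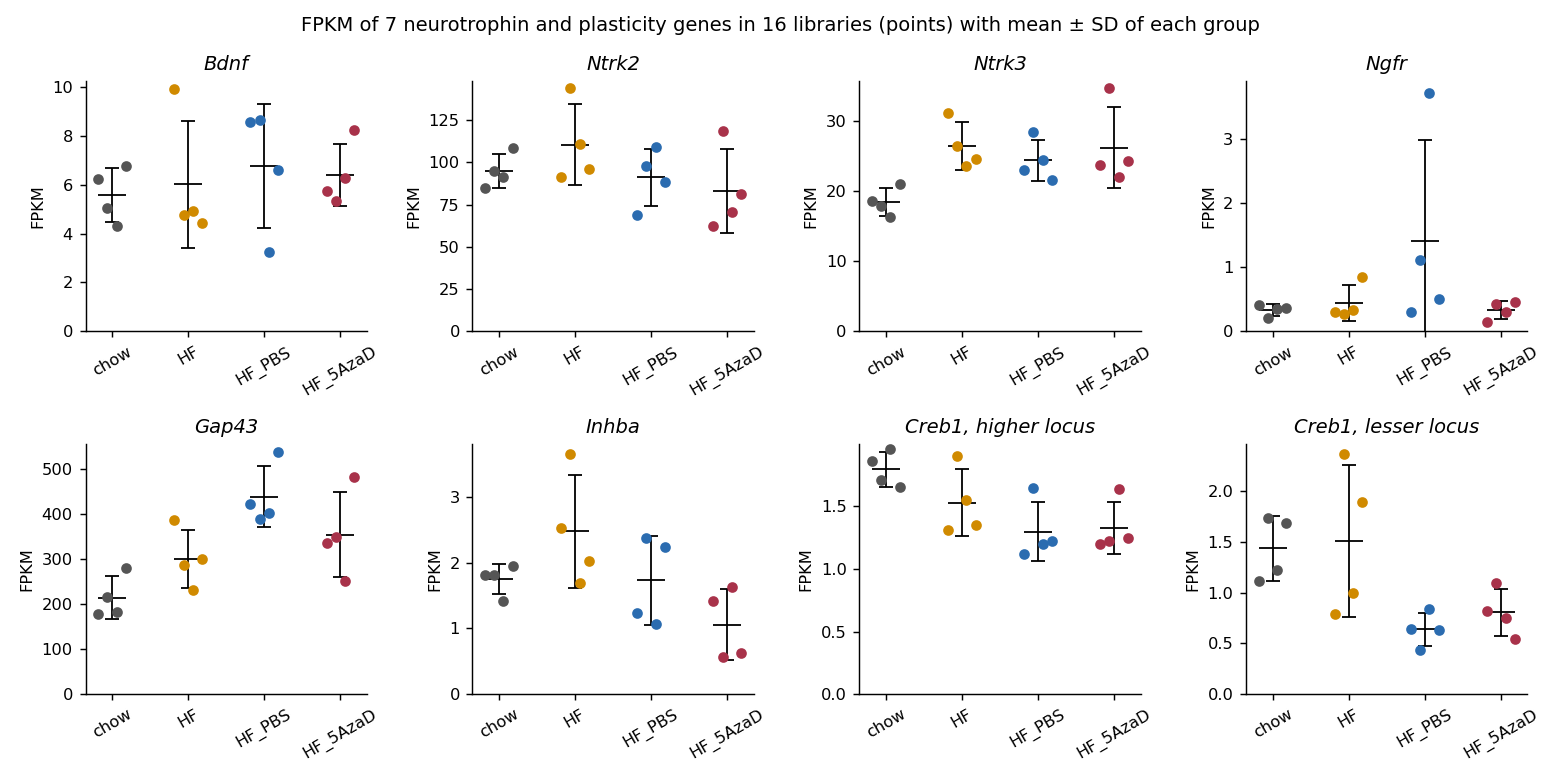
FPKM of the 7 genes, with Creb1 shown for both of its loci, in each library (points) by group, with the mean and SD of 4 libraries (lines). The y axes are linear and differ between panels; Gap43 rose from chow to HF_PBS without overlap, Ntrk3 in chow lay below every other group, and the lower SD bar of Ngfr in HF_PBS is not drawn below 0.

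Group differences were fitted with limma on log2(FPKM + 0.5) over all 14824 loci tested, and a gene passed at a Benjamini-Hochberg adjusted p under 0.05. Adjusted p-values below come from that model or, where libraries are left out or loci summed, from refits of it, except those of Ngfr. In HF against chow 0% of all loci passed, and none of the 6 tested genes did. There 1020 of the 14824 loci had an unadjusted p under 0.05, where a share of 0.05 is expected without any difference. In HF_PBS against chow 2 of the 6 passed, Gap43 and Ntrk3, where 28.2% of all loci did. In HF_5AzaD against chow the same 2 passed, where 16.3% of all loci did. In HF_PBS against HF none of the 6 passed, against 23.9% of all loci, and in HF_5AzaD against HF Inhba passed, against 14.2%. In HF_5AzaD against HF_PBS, which sets the inhibitor against its vehicle, none passed and 0% of all loci did. There 1100 of the 14824 loci had an unadjusted p under 0.05, beside the same expected share. These comparisons share their control libraries, and with 6 genes the counts are not read as departing from the background.

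Counted by libraries that do not overlap between groups, Ntrk3 stood apart in HF against chow, where 6.95% of all loci did. Ntrk3, Gap43 and Creb1 stood apart in HF_PBS against chow, where 33.3% did, and Ntrk3 and Creb1 in HF_5AzaD against chow, where 27.2% did. Gap43 stood apart in HF_PBS against HF, where 21.2% did, and Inhba in HF_5AzaD against HF, where 17.7% did. None of the 6 stood apart in HF_5AzaD against HF_PBS, where 2.4% of loci did.

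**Figure D2:**
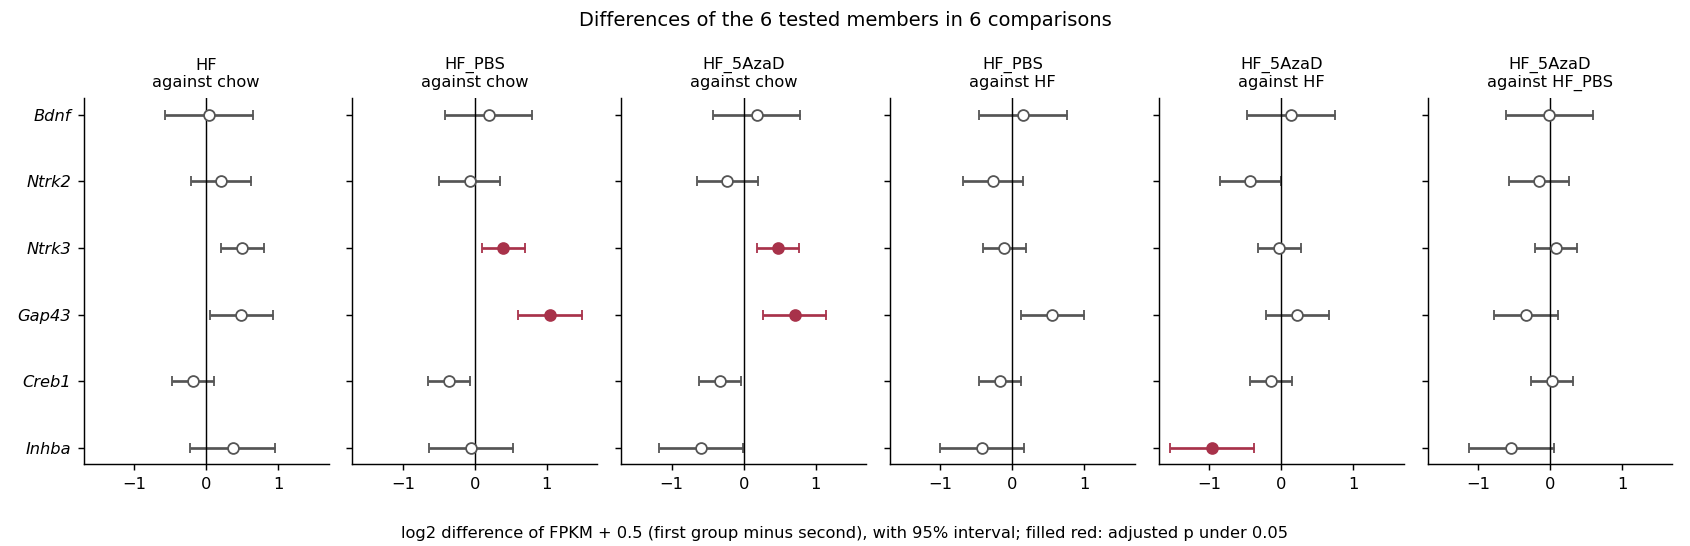
Log2 differences of FPKM + 0.5 (x axis, first group minus second) of the 6 tested genes in the 6 comparisons, with 95% intervals; filled red points passed the test. Gap43 and Ntrk3 passed against chow in both injected groups, Inhba passed in HF_5AzaD against HF, and no point is filled in the diet comparison or in the inhibitor comparison. For Ntrk3 the open point of the diet comparison, 0.50, lies above both filled ones, since the adjusted p depends on all loci of a comparison.

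Bdnf, the ligand of TrkB, showed no difference that passed the test. It was at 6.22, 5.05, 4.32 and 6.76 FPKM in chow 1 to 4 and at 9.90, 4.76, 4.93 and 4.45 in HF 5 to 8. It was at 8.57, 8.63, 3.26 and 6.60 in HF_PBS 1 to 4 and at 5.75, 5.31, 6.27 and 8.21 in HF_5AzaD 3, 5, 6 and 7. HF 5 stood above the other 3 HF libraries and HF_PBS 3 below every other library, and all groups overlapped. The log2 difference was 0.04 for HF against chow (SE 0.284, 95% interval -0.56 to 0.65, adjusted p = 0.987) and -0.01 for HF_5AzaD against HF_PBS (95% interval -0.62 to 0.60, adjusted p = 0.997). Over the 6 comparisons the lowest adjusted p was 0.632, for HF_PBS against chow, with a log2 difference of 0.19 and an interval of -0.42 to 0.80.

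Rat Bdnf is transcribed from several promoters, and CREB is known to act on it through short cyclic AMP response elements. The sequences of the start site regions show where the letters TGACG, the core of such an element, occur. RefSeq, on build GRCr8, gave 6 windows of Bdnf, each from 250 bases before to 50 after a start, and 3 of the 7 genes had a window (Bdnf, Creb1 and Inhba). The core, searched on both strands, occurred in 1 of the 6 Bdnf windows, at chr3:116637608-116637907 on the plus strand, as its reverse complement CGTCA starting 35 bases before the start site. It is printed 5′ to 3′ with the core in capitals.
Bdnf window 4: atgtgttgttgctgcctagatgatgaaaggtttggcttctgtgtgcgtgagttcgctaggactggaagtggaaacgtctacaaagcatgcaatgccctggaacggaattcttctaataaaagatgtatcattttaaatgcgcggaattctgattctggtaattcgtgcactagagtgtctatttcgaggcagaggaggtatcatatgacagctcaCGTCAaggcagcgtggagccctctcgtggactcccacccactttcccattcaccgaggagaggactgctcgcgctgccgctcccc
Over all 33469 such windows 21.2% held the core and 1.83% held the full palindrome TGACGTCA, which contains the core and occurred in none of the 9 windows of these genes. The Bdnf window held 15 CpG sites, the substrate of DNA methylation, against a median of 7 over all windows. FPKM per locus do not separate the transcripts of these starts.

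Of the other neurotrophin ligands, 2 of 3 had a locus and only Ntf3, the ligand of TrkC, was tested. It was at 0.517 ± 0.329 FPKM in chow, 1.05 ± 0.685 in HF, 1.04 ± 0.155 in HF_PBS and 2.60 ± 2.49 in HF_5AzaD (SD, n = 4). Its log2 difference of 1.32 in HF_5AzaD against chow did not pass (adjusted p = 0.0589). The counts of called genes in this and the following lists stand beside 28.2% of all loci called in HF_PBS against chow, 16.3% in HF_5AzaD against chow, 23.9% in HF_PBS against HF and 14.2% in HF_5AzaD against HF. Of the enzymes that cut neurotrophins, 4 of 7 were tested; 2 fell in HF_PBS against chow, 2 in HF_PBS against HF, 1 in HF_5AzaD against chow and none in HF_5AzaD against HF, and none rose. The proprotein convertase gene Furin was at 11.3 ± 0.472 FPKM in chow and 8.86 ± 0.953 in HF_PBS, a log2 difference of -0.33 (adjusted p = 0.0179; 0.0506 without chow 4 and 0.0529 without HF_PBS 4). Against HF, at 11.6 ± 0.905 FPKM, the difference was -0.38 (adjusted p = 0.0112). Pcsk7, another convertase gene, was at 15.1 ± 1.15 FPKM in chow, 14.8 ± 1.25 in HF, 11.3 ± 2.01 in HF_PBS and 11.3 ± 1.93 in HF_5AzaD.

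Ntrk2, which encodes TrkB, passed in no comparison. It was at 84.8, 94.8, 91.5 and 108 FPKM in chow 1 to 4 and at 91.4, 144, 111 and 95.8 in HF 5 to 8. It was at 68.9, 98.0, 109 and 88.4 in HF_PBS 1 to 4 and at 62.4, 119, 70.7 and 81.5 in HF_5AzaD 3, 5, 6 and 7. The lowest and the highest library of all, HF_5AzaD 3 and HF 6, lay in different groups, but every pair of groups overlapped. The difference with the lowest p was HF_5AzaD against HF, a log2 difference of -0.43 (SE 0.196, 95% interval -0.85 to -0.01, adjusted p = 0.146). Without HF_5AzaD 5 it was -0.61, with an adjusted p of 0.0338. Since the locus value adds all transcripts, the kinase-bearing and truncated forms of TrkB are not separated.

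Ntrk3, which encodes TrkC, the receptor of neurotrophin-3, was lowest in chow. It was at 18.6, 17.8, 16.3 and 21.0 FPKM in chow 1 to 4 and at 31.1, 26.4, 23.5 and 24.5 in HF 5 to 8. It was at 23.0, 28.4, 24.4 and 21.6 in HF_PBS 1 to 4 and at 23.7, 34.7, 22.0 and 24.2 in HF_5AzaD 3, 5, 6 and 7. All 12 libraries on the high fat diet lay above all 4 chow libraries, while the 3 diet groups overlapped one another. The log2 difference was 0.50 in HF against chow (SE 0.139, 95% interval 0.21 to 0.80, unadjusted p = 0.00259), with an adjusted p of 0.682. Ntrk3 rose by 0.39 in HF_PBS against chow (interval 0.10 to 0.69, unadjusted p = 0.013, adjusted p = 0.0474). The rise was 0.48 in HF_5AzaD against chow (interval 0.18 to 0.77, unadjusted p = 0.00387, adjusted p = 0.0352). The diet comparison thus had the largest difference and the lowest unadjusted p of these, since the adjustment depends on the p-values of all loci in a comparison.
Both calls lay near the threshold. The one in HF_PBS against chow was lost without chow 1, 2 or 3, HF 6, 7 or 8, any of the 4 HF_PBS libraries, or HF_5AzaD 3 or 7, with adjusted p-values up to 0.124. The one in HF_5AzaD against chow was lost without any chow library or without HF_5AzaD 5 or 7, with values up to 0.0955. Between the diet groups the differences were -0.11 (HF_PBS against HF), -0.03 (HF_5AzaD against HF) and 0.08 (HF_5AzaD against HF_PBS), each with an adjusted p of at least 0.585.

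Ngfr, which encodes the receptor that binds all neurotrophins, was near the floor except in a few libraries. It was at 0.413, 0.203, 0.350 and 0.372 FPKM in chow 1 to 4 and at 0.297, 0.278, 0.342 and 0.853 in HF 5 to 8. It was at 0.301, 1.11, 3.71 and 0.499 in HF_PBS 1 to 4 and at 0.143, 0.428, 0.296 and 0.456 in HF_5AzaD 3, 5, 6 and 7. HF_PBS 3, HF_PBS 2 and HF 8 were the highest, and every pair of groups overlapped. Since Ngfr was not among the loci tested, a two-sided exact permutation test of its log2 values, chosen after its level was seen, compared each pair of groups of 4, where the smallest p possible is 0.0286. The p was 0.114 for HF_PBS against chow (log2 difference 0.88; 0.343 adjusted over the 6 comparisons) and 0.114 for HF_5AzaD against HF_PBS (-0.90 with the same adjusted value), and 0.2 or more elsewhere.

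Markers of basal forebrain cholinergic neurons, which are known for high Ngfr, stood beside these values library by library. Lhx8, a transcription factor gene of those neurons, was at 8.50 FPKM in HF_PBS 3, 1.88 in HF 8, 1.75 in HF_PBS 2, 0.911 in HF_PBS 4 and 0.911 in HF_5AzaD 7, and at 0.0633 or less in the other 11 libraries. Slc18a3, the vesicular acetylcholine transporter gene, was at 2.45 FPKM in HF_PBS 3, 2.73 in HF 8, 1.56 in HF_PBS 2 and 0.926 in HF_PBS 4, and at 0.658 or less elsewhere. Chat, whose product makes acetylcholine, did not follow Lhx8: it was at 7.81 to 10.3 FPKM in the 8 libraries without injection, 8.11 in HF 8 among them, and at 10.6 to 12.4 in the 8 injected ones. All 7 listed markers had a locus, Lhx8, Isl1 and Gbx1 were at 0 in some library, and the sums were 9.07 to 11.2 FPKM in chow, 9.11 to 23.3 in HF, 12.3 to 36.8 in HF_PBS and 12 to 13.7 in HF_5AzaD. Their part in the Ngfr values was not tested.

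**Figure D3:**
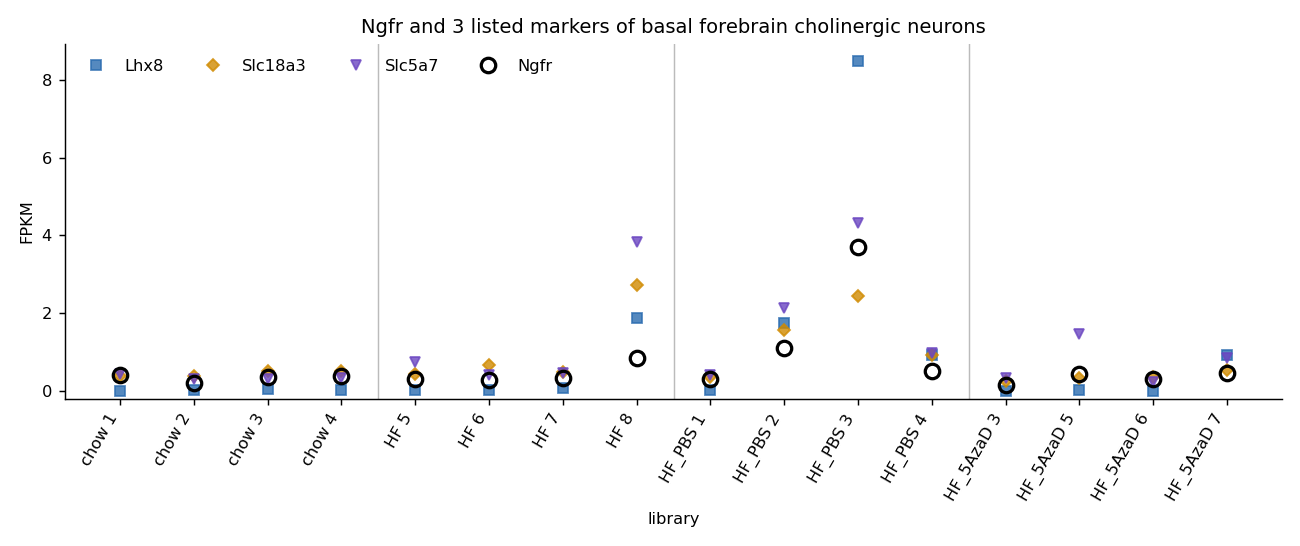
FPKM (y axis, linear) of Ngfr (open circles) and 3 listed markers of basal forebrain cholinergic neurons, Lhx8, Slc18a3 and Slc5a7, in each of the 16 libraries (x axis). Ngfr and Lhx8 share their highest library, HF_PBS 3, at 3.71 and 8.50 FPKM. Chat, a listed marker that is not drawn, did not follow Lhx8, at 8.11 FPKM in HF 8 and 11.4 to 12.4 in HF_PBS.

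Among the other receptors and co-receptors, 8 of 9 listed genes were tested. Against chow, 1 rose and 4 fell in HF_PBS, with a median log2 difference of -0.38 beside 0.01 over all loci, and in HF_PBS against HF 1 rose and 3 fell. HF_5AzaD had 1 higher and 1 lower against chow and 1 lower against HF. Sort1, which encodes sortilin, a sorting receptor of proneurotrophins, was at 149 ± 3.73 FPKM in chow, 125 ± 37.7 in HF, 72.3 ± 18.1 in HF_PBS and 75.8 ± 20.1 in HF_5AzaD. It fell in both injected groups against chow, by 1.07 (adjusted p = 0.0051) and by 1.01 on the log2 scale (adjusted p = 0.0135; 0.0539 without HF_5AzaD 7). Against HF it fell by 0.78 in HF_PBS (adjusted p = 0.0205) and by 0.72 in HF_5AzaD (adjusted p = 0.0417), calls near the threshold. The former was lost without HF 6, HF_PBS 3 or HF_PBS 4, with values up to 0.0743, and the latter without any chow library, HF 5, 6 or 7, or HF_5AzaD 5 or 7, with values up to 0.143.
Lingo1, a co-receptor of the Nogo receptor complex, was at 168 ± 10.6 FPKM in chow and 85.9 ± 40.9 in HF_PBS (log2 difference -1.10, adjusted p = 0.0156; 0.0558 without HF_PBS 4). Kidins220, a scaffold of Trk receptors, was at 54.5 ± 9.61 FPKM in HF and 38.6 ± 3.59 in HF_PBS (log2 difference -0.48, adjusted p = 0.0165; 0.0606 without HF 6 and 0.0581 without HF_PBS 4). Ngfrap1, which encodes a protein that binds the Ngfr product, went the other way, at 191 ± 7.11 FPKM in chow and 285 ± 35.8 in HF_PBS. Its log2 difference was 0.57 (adjusted p = 0.0226), and it was lost without chow 1 or 3 or HF_PBS 3 or 4, with values up to 0.0772.

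Among Trk adaptors and signalling genes 30 of 33 were tested. Against chow, 1 rose and 10 fell in HF_PBS, where 28.2% of all loci were called, with a median log2 difference of -0.20 beside 0.01 over all loci. Another 3 comparisons had calls: in HF_5AzaD against chow 8 fell (16.3% of all loci called), in HF_PBS against HF 9 fell (23.9%) and in HF_5AzaD against HF 6 fell (14.2%); none rose in these 3. Pik3cb, a catalytic subunit gene of PI3 kinase, fell by 1.10 in HF_PBS against chow, from 4.88 ± 0.281 to 2.10 ± 0.756 FPKM (adjusted p = 0.00707). Crkl, an adaptor gene, was at 2.97 ± 0.49 FPKM in chow, 3.08 ± 0.65 in HF, 1.49 ± 0.369 in HF_PBS and 1.53 ± 0.464 in HF_5AzaD, and fell by 0.85 in HF_PBS against HF (adjusted p = 0.00799). Shc3, a neuronal Shc adaptor gene, fell from 38.6 ± 9.32 FPKM in HF to 22.9 ± 3.76 in HF_PBS (adjusted p = 0.00998) and 21.5 ± 3.63 in HF_5AzaD (adjusted p = 0.0129).

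Creb1, which encodes CREB, had 2 loci, and both lay lower in the injected groups than in chow. At the higher locus it was at 1.86, 1.71, 1.95 and 1.65 FPKM in chow 1 to 4 and at 1.31, 1.90, 1.55 and 1.35 in HF 5 to 8. It was at 1.12, 1.64, 1.20 and 1.22 in HF_PBS 1 to 4 and at 1.20, 1.23, 1.64 and 1.25 in HF_5AzaD 3, 5, 6 and 7. Every injected library lay below every chow library, narrowly for HF_PBS 2 and HF_5AzaD 6 at 1.64 FPKM against 1.65 in chow 4, and the HF group overlapped all others.
The log2 difference was -0.36 in HF_PBS against chow (SE 0.137, 95% interval -0.65 to -0.07, adjusted p = 0.0613; 0.0273 without HF_PBS 2) and -0.33 in HF_5AzaD against chow (adjusted p = 0.101). The lesser locus held 42.5% of the summed Creb1 level. There it was at 1.11, 1.74, 1.22 and 1.69 FPKM in chow 1 to 4, and at 0.787, 2.37, 0.998 and 1.89 in HF 5 to 8. It was at 0.641, 0.438, 0.842 and 0.635 in HF_PBS 1 to 4, and at 0.820, 1.10, 0.755 and 0.549 in HF_5AzaD 3, 5, 6 and 7. Both injected groups again lay below chow without overlap, and HF spread across all of them. At this locus Creb1 fell by 0.77 in HF_PBS against chow (SE 0.243, adjusted p = 0.0307), with a value of up to 0.0823 without chow 2, 3 or 4 or HF_PBS 2 or 4. It also fell by 0.76 in HF_PBS against HF (adjusted p = 0.0368), a call lost without HF 6 or 8 or HF_PBS 1, 2 or 4, with values up to 0.131.
With the 2 loci summed, Creb1 passed in HF_PBS against chow (-0.62, adjusted p = 0.0121), in HF_5AzaD against chow (-0.51, adjusted p = 0.042) and in HF_PBS against HF (-0.50, adjusted p = 0.0318), so the call for Creb1 depends on how its loci are counted.

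The region of the first listed Creb1 start is shown because it holds the CREB core itself. In the window chr9:73397259-73397558 on the plus strand of GRCr8, the core TGACG, in capitals, occurred 3 times, starting 80 and 59 bases before and 8 bases after the start site.
Creb1 window 1: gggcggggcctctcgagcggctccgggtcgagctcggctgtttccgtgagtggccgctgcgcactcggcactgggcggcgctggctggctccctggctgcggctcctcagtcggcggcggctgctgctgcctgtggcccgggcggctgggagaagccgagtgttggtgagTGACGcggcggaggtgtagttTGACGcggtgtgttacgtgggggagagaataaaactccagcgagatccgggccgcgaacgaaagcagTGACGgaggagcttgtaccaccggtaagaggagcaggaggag
This window held 32 CpG sites, and 92.5% of all windows held as many or fewer. The other Creb1 window held 2 CpG sites and no core.

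Among CREB kinases and coactivators 15 of 17 were tested. Against chow, 1 rose and 6 fell in HF_PBS, in HF_PBS against HF 1 rose and 4 fell, and in HF_5AzaD 2 fell against chow and 2 against HF. The median log2 difference in HF_PBS against chow was 0.02, beside 0.01 over all loci. Crtc1, a CREB coactivator gene, was at 39.4 ± 6.3 FPKM in chow, 39.9 ± 13.8 in HF, 17.3 ± 4.12 in HF_PBS and 21.0 ± 5.62 in HF_5AzaD. Its log2 difference was -1.18 in HF_PBS against chow (adjusted p = 0.00469) and -1.16 in HF_PBS against HF (adjusted p = 0.00512). Camkk1 and Camkk2 encode the kinases that activate CaM kinases, and they fell in HF_PBS against chow by 1.38 (115 ± 8.91 to 47.4 ± 21.2 FPKM, adjusted p = 0.00524) and 1.35 (61.3 ± 2.85 to 25.3 ± 10.5 FPKM, adjusted p = 0.00887). Atf1, which encodes a close relative of CREB, rose by 0.55 in HF_PBS against HF, from 6.47 ± 0.964 to 9.68 ± 1.18 FPKM (adjusted p = 0.00998).

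Of the activity-induced genes, known to follow neuronal firing, 19 of 20 were tested. Egr3, a zinc finger transcription factor gene, was the gene called, in HF_PBS and HF_5AzaD against chow, and none was called in the other comparisons. It was at 57.8 ± 9.48 FPKM in chow, 48.8 ± 13.9 in HF, 28.6 ± 11.4 in HF_PBS and 31.0 ± 9.61 in HF_5AzaD, with a log2 difference of -1.08 in HF_PBS against chow (adjusted p = 0.0144). The difference in HF_5AzaD against chow was -0.92 (adjusted p = 0.0419; values up to 0.137 without any chow library, HF 5 or 8, or HF_5AzaD 3, 5 or 7). The median of the list was -0.27 in HF against chow and 0.43 in HF_PBS against HF, beside -0.01 and 0.01 over all loci, with no gene past the test in either.

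**Figure D4:**
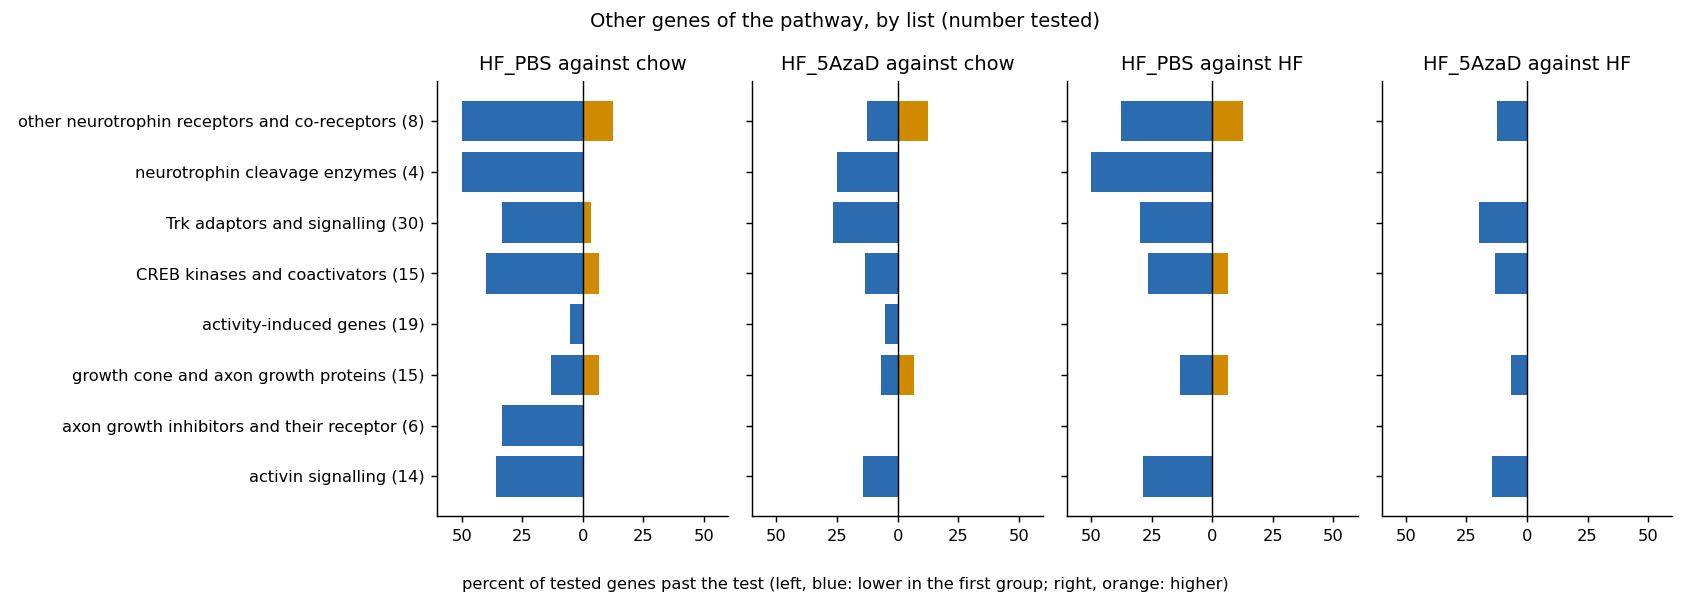
Share of tested genes of each list drawn (number in brackets) that passed the test in the 4 comparisons with calls, in percent. Genes lower in the first group are to the left and higher ones to the right. The list of other neurotrophin ligands, of which only Ntf3 was tested, is not drawn. Calls were mostly lower in the injected group, and Egr3 alone was called among the activity-induced genes. Over all loci, not drawn, 2331 were called lower and 1842 higher in HF_PBS against chow, and 1350 and 1064 in HF_5AzaD against chow. Against HF these numbers were 1956 and 1580 in HF_PBS and 1132 and 980 in HF_5AzaD.

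Gap43, whose product is the growth cone protein GAP-43, was the highest of the 7 genes. It passed as higher in both injected groups against chow, where diet and injection differ together, but in neither against HF. It was at 179, 216, 182 and 281 FPKM in chow 1 to 4 and at 387, 287, 231 and 299.7 in HF 5 to 8. It was at 423, 391, 403 and 539 in HF_PBS 1 to 4 and at 336, 349, 252 and 482 in HF_5AzaD 3, 5, 6 and 7. All HF_PBS libraries lay above all chow and HF libraries, while HF and HF_5AzaD each overlapped chow. Gap43 rose by 1.04 in HF_PBS against chow (SE 0.206, 95% interval 0.60 to 1.48, adjusted p = 0.00449), and leaving out any 1 library gave 0.94 to 1.18 with adjusted p-values of 0.00294 to 0.0192. It rose by 0.71 in HF_5AzaD against chow (SE 0.206, interval 0.27 to 1.15, adjusted p = 0.0342), a call lost without chow 1, 2 or 3 or HF_5AzaD 3, 5 or 7, with values up to 0.121.
The log2 difference was 0.49 in HF against chow (interval 0.05 to 0.93, adjusted p = 0.696) and 0.56 in HF_PBS against HF (interval 0.12 to 0.99, adjusted p = 0.0627). The latter passed without HF 5 (0.0361), HF_5AzaD 6 (0.0476) or HF_5AzaD 7 (0.043). In HF_5AzaD against HF_PBS it was -0.33 (interval -0.77 to 0.11, adjusted p = 0.786). Without the 3 libraries with the highest striatal sums, HF 8, HF_PBS 3 and HF_PBS 4, Gap43 differed by 0.94 in HF_PBS against chow with an adjusted p of 0.0867, and 3 of all loci then passed. HF_PBS 2, with a striatal sum of 854 FPKM, stayed in that fit beside HF_PBS 1, so the fit does not remove the striatal difference.

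Other growth cone and axon growth genes did not share a direction, with 15 of 16 tested. In HF_PBS against chow 1 rose and 2 fell, in HF_PBS against HF likewise, in HF_5AzaD against chow 1 rose and 1 fell, and in HF_5AzaD against HF 1 fell. Marcks, like Gap43 a membrane-bound substrate of protein kinase C, rose from 28.7 ± 1.26 FPKM in chow to 56.0 ± 6.89 in HF_PBS (log2 difference 0.95, adjusted p = 0.00522) and 56.7 ± 17.9 in HF_5AzaD (0.92, adjusted p = 0.0129). Mapt, the tau gene, fell from 127 ± 9.89 FPKM in chow to 92.6 ± 5.08 in HF_PBS (adjusted p = 0.00739), and Cap1, which encodes an actin regulator, from 92.6 ± 1.71 to 65.8 ± 15.0 (adjusted p = 0.0151; 0.0532 without HF_PBS 4). Among axon growth inhibitors and their receptors all 6 were tested, and 2 fell in HF_PBS against chow, with none called in the other comparisons. Rtn4rl1, a homologue of the Nogo receptor gene, fell by 1.03, from 43.7 ± 3.28 to 22.2 ± 7.84 FPKM (adjusted p = 0.00585). Rtn4r, the Nogo receptor gene itself, fell by 1.00, from 81.3 ± 4.48 to 44.7 ± 20.7 FPKM (adjusted p = 0.04). Without HF_PBS 3 the difference was -0.63 with an adjusted p of 0.109, and the call was also lost without any chow library or HF_PBS 4.

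Inhba, which encodes the activin A subunit and is induced by neuronal activity, was lowest in HF_5AzaD. It was at 1.81, 1.82, 1.42 and 1.95 FPKM in chow 1 to 4 and at 2.53, 3.65, 1.69 and 2.03 in HF 5 to 8. It was at 1.24, 2.38, 1.06 and 2.24 in HF_PBS 1 to 4 and at 1.41, 0.564, 1.64 and 0.621 in HF_5AzaD 3, 5, 6 and 7. All 4 HF_5AzaD libraries lay below all 4 HF libraries and overlapped chow and HF_PBS. Inhba fell by 0.96 in HF_5AzaD against HF (SE 0.274, 95% interval -1.54 to -0.38, adjusted p = 0.0331), a call lost without HF 5, 6 or 8 or HF_5AzaD 5 or 7, with values up to 0.12. The log2 difference was -0.54 in HF_5AzaD against HF_PBS (interval -1.12 to 0.05, unadjusted p = 0.0696, adjusted p = 0.708) and -0.59 in HF_5AzaD against chow (adjusted p = 0.135). HF, the group of the call's reference, had the highest mean, 2.48 FPKM, beside 1.75 in chow and 1.73 in HF_PBS. Inhba differed by 0.37 in HF against chow (adjusted p = 0.787) and by -0.42 in HF_PBS against HF (adjusted p = 0.271).

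Slc17a7 was at 598, 499, 466 and 460.0 FPKM in HF_5AzaD 3, 5, 6 and 7, of which 5 and 7 had the lowest Inhba. The projection neuron sums of each group are given above, and none of the 8 markers was at 0. Without HF_5AzaD 5 and 7, left out together after the data were seen and by a measure not reported here, the Inhba difference in HF_5AzaD against HF was -0.52 with an adjusted p of 0.28.

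The start region of Inhba, chr17:53804459-53804758 on the minus strand of GRCr8, is shown because DNA methyltransferases act on CpG sites. Its 3 CpG sites are in capitals, and it held no TGACG core. The 6 Bdnf windows held 4 to 15 CpG sites and the 2 Creb1 windows 32 and 2.
Inhba window 1: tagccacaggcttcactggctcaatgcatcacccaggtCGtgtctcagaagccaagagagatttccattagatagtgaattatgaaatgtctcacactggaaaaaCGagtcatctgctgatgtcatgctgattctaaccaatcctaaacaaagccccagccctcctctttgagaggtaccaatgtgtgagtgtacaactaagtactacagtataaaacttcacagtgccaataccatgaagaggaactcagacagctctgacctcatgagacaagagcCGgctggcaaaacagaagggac

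Among activin signalling genes 14 of 15 were tested. None rose in any comparison. In HF_PBS 5 fell against chow, where 28.2% of all loci were called, and 4 against HF, where 23.9% were. In HF_5AzaD 2 fell against chow and 2 against HF, where 16.3% and 14.2% of all loci were called. With 14 genes these counts are not read as departing from the background. The median log2 difference was -0.36 in HF_PBS against chow beside 0.01 over all loci. Acvr1c, a type I receptor gene, was at 4.10 ± 0.64 FPKM in chow, 4.30 ± 2.5 in HF, 1.02 ± 0.723 in HF_PBS and 1.27 ± 0.761 in HF_5AzaD, and it fell by 1.71 in HF_PBS against chow (adjusted p = 0.0119). Acvr1b, another type I receptor gene, fell by 0.89, from 31.5 ± 3.53 to 17.4 ± 5.53 FPKM (adjusted p = 0.0166). Smad4, the shared partner of activated Smads, was at 14.0 ± 0.95 FPKM in chow, 17.2 ± 3.35 in HF, 10.4 ± 1.97 in HF_PBS and 9.90 ± 1.17 in HF_5AzaD, and fell by 0.76 in HF_5AzaD against HF (adjusted p = 0.01). Smad3, which carries activin signals, fell by 0.64 in HF_PBS against HF (adjusted p = 0.0358; values up to 0.121 without HF 6 or 8 or HF_PBS 1, 3 or 4).

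**Figure D5:**
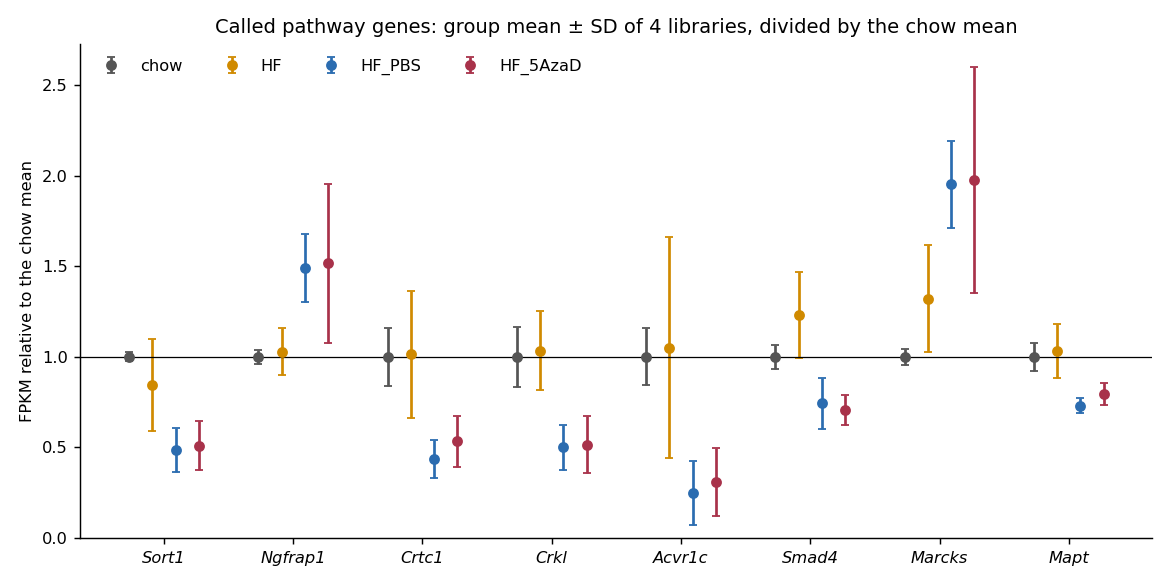
Group mean and SD of 4 libraries for 8 called pathway genes, divided by the chow mean (y axis, linear). HF lies near 1 for most, Ngfrap1 and Marcks lie above 1 in both injected groups, and the other 6 lie below 1.

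Over all 9 lists together 112 of 126 genes were tested. In HF_PBS against chow 4 rose and 32 fell, which is 32.1% of the 112 against 28.2% of all loci. In HF_5AzaD against chow 2 rose and 16 fell (16.1%, against 16.3%), in HF_PBS against HF 3 rose and 24 fell (24.1%, against 23.9%), and in HF_5AzaD against HF 12 fell (10.7%, against 14.2%). None passed in HF against chow or in HF_5AzaD against HF_PBS. The share called was therefore close to that of all loci, while over all loci 1842 rose and 2331 fell in HF_PBS against chow. With HF_PBS 4 left out, 16 rather than 36 genes passed in HF_PBS against chow and 12 rather than 27 in HF_PBS against HF, and without chow 3 or chow 4, 23 passed in the former. In HF_5AzaD against chow the count was 5, 3, 3 and 2 without chow 1, 2, 3 and 4 and 1 without HF_5AzaD 7. Without HF 6, 11 passed in HF_PBS against HF and 2 in HF_5AzaD against HF, and without HF_5AzaD 7, 2 passed in the latter. Without HF 8, HF_PBS 3 and HF_PBS 4 together none passed in HF_PBS against chow or against HF. Of the named calls, 13 of 20 in HF_PBS against chow, 9 of 17 in HF_PBS against HF, 1 of 13 in HF_5AzaD against chow and 2 of 9 in HF_5AzaD against HF held with any 1 library left out.

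Genes whose pattern over the 16 libraries was most like that of each of the 7 were found by Pearson's correlation of log2 values among 11033 loci with a symbol, as a description, since the libraries share group and tissue differences. Gap43 was followed most closely by Tmsb10 (r = 0.954), an actin-binding thymosin gene, and by Bex1 (0.936). Ntrk2 was nearest to Enah (0.93), Agap1 (0.917) and Klhl5 (0.907), and Ntrk3 to Siat7E (0.872), Pcdh19 (0.871) and Slc4a7 (0.868). Creb1 was nearest to Fiz1 (0.936), Irs1 (0.914) and Sh2b3 (0.913). Ngfr was nearest to Calcr (0.969), the calcitonin receptor gene, Gpr165 (0.931) and Plcd4 (0.898), and this rests on the few libraries in which Ngfr was high. Inhba was nearest to Mfap3l (0.853), Arhgap5 (0.822) and Hivep1 (0.821). Bdnf had the weakest likeness of the 7, with Cnrip1 (0.798), Rab7l1 (0.795) and Tmem2 (0.791).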

How the data were processed

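Poly-A RNA was sequenced from 1000 ng of total RNA per sample, from fragments of 200 to 400 bp, on an Illumina HiSeq, per the labels' protocols. The authors deposited FPKM per merged locus with a status per value. Tools listed in the submitters' processing notes are Cuffdiff and Cufflinks, TopHat and TopHat2, and Bowtie and Bowtie2, with the build rn5; their versions and roles are not given in the sources used here. Strand is not given either, so reads of overlapping and antisense transcripts may be counted in a gene, and loci with near-identical copies may share fragments. The table held 28168 loci, 18005 with a symbol, and 0 per-sample columns of other series; 161 loci without status OK throughout were left out.

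The values were used as deposited. The 14824 loci whose mean over the libraries reached 1 FPKM were fitted in limma 3.58.1 (R 4.3.3) on log2(FPKM + 0.5), with a mean-dependent variance prior, 1 mean per group, all 16 libraries and 12 residual degrees of freedom; 6 contrasts were adjusted by Benjamini-Hochberg, threshold 0.05. This scale understates changes of low genes. Groups follow the stated treatment. The model and the depth estimate were run on simulated data, drawn independently per locus without the tissue differences between libraries seen here. Those runs do not show how either behaves with such differences. The 7 genes and the gene lists were chosen with earlier results of these data known. Named pathway genes are, per comparison and list, up to 3 called genes with the lowest p; the patterns most like each gene are the 3 highest correlations. Some genes these rules select, and results that need them, are not reported here. For Creb1, its lesser locus is given because it passed where the higher one did not, and was chosen after its values were seen. Sequences come from RefSeq, build GRCr8, and no coordinates were converted. Depth in reads is unknown, so no interval for counting error is given. Plots used Python 3.11.15, numpy 2.4.6, pandas 2.3.3 and matplotlib 3.10.9. Alternatives covered the pseudocount, the filter, scaling, the variance prior, the libraries fitted, summed loci, the replicate block and leaving out libraries.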

Additional observations from a re-analysis of the deposited data

Results flagged for a closer look

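In 3 of the 28 groups of 4 libraries checked, 1 library lay far from the other 3 of its group, measured as its gap to the nearest over the range of the group. Chance gives such a gap in about 1 in 20 groups. Bdnf was at 9.90 FPKM in HF 5, whereas the other HF libraries were at 4.45 to 4.93 FPKM. Ngfr was at 0.853 FPKM in HF 8, whereas the other HF libraries were at 0.278 to 0.342 FPKM; the same library had the highest summed level of striatal markers, 1592 FPKM, and Lhx8 at 1.88 FPKM. Creb1 was at 1.64 FPKM in HF_5AzaD 6, whereas the other libraries of that group were at 1.20 to 1.25 FPKM.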

How the results depend on the processing

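None of the 7 genes was called for the diet (HF against chow) or the inhibitor (HF_5AzaD against HF_PBS) under any alternative run. In HF_PBS against chow it was 1 in place of 2 with no filter, with median-ratio scaling and with the replicate block, 0 without HF 8, HF_PBS 3 and HF_PBS 4 together, and 1 to 2 without 1 library. It was 3 with loci summed, where Creb1 was added, and stayed at 2 with a variance prior without trend, where Ntrk3 was lost (0.0534) and Creb1 gained (0.0343). In HF_5AzaD against chow it was 3 with loci summed, where Creb1 was added, 0 in place of 2 with the replicate block, without HF_5AzaD 5 and 7 together and with only the 2 groups fitted, and 0 to 2 without 1 library. In HF_PBS against HF it was 1 in place of 0 with loci summed and without HF_5AzaD 5 and 7, and 0 to 1 without 1 library. In HF_5AzaD against HF it was 0 in place of 1 with no filter, a minimum of 5 FPKM (Inhba then not tested), the replicate block, without HF_5AzaD 5 and 7 and with only the 2 groups fitted, and 0 to 1 without 1 library. The cause was not tested.

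No called difference of the 7 genes changed sign in the alternatives run. The sign of uncalled ones turned for Creb1 at its lesser locus in HF against chow with a pseudocount of 1 (0.0028), for Gap43 in HF_5AzaD against HF (-0.024) and Ntrk3 in HF_5AzaD against HF_PBS (-0.086) without HF_5AzaD 5 and 7, and for Creb1 in HF_5AzaD against HF_PBS (-0.034) without HF 8, HF_PBS 3 and 4. Without 1 library, ranges crossed 0 in HF against chow for Bdnf (-0.21 to 0.15) and the lesser Creb1 locus (-0.21 to 0.18), in HF_PBS against chow for Ntrk2 (-0.17 to 0.054) and Inhba (-0.20 to 0.10), in HF_5AzaD against HF for Ntrk3 (-0.17 to 0.053), and in HF_5AzaD against HF_PBS for Bdnf (-0.30 to 0.13), Ntrk3 (-0.058 to 0.16) and Creb1 (-0.049 to 0.12).

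Correlations of same-numbered libraries after removing group means were 0.00971, 0.0161, 0.0236 and -0.164 for chow and HF_PBS. For HF and HF_5AzaD they were -0.107, 0.0641 and 0.0346. Differently numbered libraries were not compared, so these values do not show whether replicate numbers mark pairs. With the replicate block, 5 residual degrees of freedom remained, and differences changed sign for Ntrk2 in HF against chow (-0.35), Inhba in HF_5AzaD against chow (0.11), Bdnf, Ntrk2 and Pcsk7 (the last called in the main result) in HF_PBS against HF (-0.39, 0.27 and 0.18), and Bdnf, Creb1 and Inhba in HF_5AzaD against HF_PBS (0.46, -0.083 and 0.17). Loci called with the block were 0 in HF_5AzaD against chow, 0 in HF_PBS against HF and 54 in HF_5AzaD against HF, and list genes 0 in each.

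Over all loci, leaving out 1 library gave 2013 to 4629 calls in HF_PBS against chow, 399 to 2906 in HF_5AzaD against chow, 1633 to 4036 in HF_PBS against HF, 395 to 2344 in HF_5AzaD against HF, and 0 to 1 in HF_5AzaD against HF_PBS. Without HF 8, HF_PBS 3 and HF_PBS 4, 3 loci passed in HF_PBS against chow and 7 in HF_PBS against HF; without HF_5AzaD 5 and 7, 73 passed in HF_5AzaD against chow, 452 in HF_5AzaD against HF and 1 in HF_5AzaD against HF_PBS. With only the 2 groups fitted, 1433 passed in HF_PBS against HF and 27 in HF_5AzaD against HF, and list genes numbered 11 and 0. With no filter 9 list genes passed in HF_5AzaD against chow in place of 18. The absolute depth is unknown, so its limit on each gene was not estimated.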
